A study of Homo sapiens with 12 samples.

Results

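The genes for the protein subunits of the mitochondrial ribosome (mitoribosome) were followed across untreated, irradiated, compound-treated and doubly treated mesothelioma cells. They were taken as every protein-coding row of the gene table whose symbol starts with MRPL (large subunit) or MRPS (small subunit) and a digit. That rule gave 78 of 58735 genes, 49 of the large and 29 of the small subunit, and 77 of them passed a filter of a mean of 1 FPKM (fragments or reads per unit of gene length and of library size) over the libraries. The choice used names and biotype and no measured value.

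The cells were MSTO-211H, an established human mesothelioma line that the submitters grew in suspension with EGF, bFGF, SM1 and heparin and describe as mesothelioma-initiating. There were 4 groups of 3 libraries: Con (vehicle and sham irradiation), IR (vehicle and 4 Gy), Rx (read as 10 µM of a compound named only QTP, with sham irradiation) and Combo (read as QTP with 4 Gy). RNA was isolated 48 h after irradiation, and the comparisons ask what each treatment did alone and together. All groups share 1 cell line. Separate cultures per library are not stated in the labels. The p-values set differences between groups against the spread of libraries within groups, which may be technical.

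Mitoribosomes translate the few proteins encoded by mitochondrial DNA, all of them core parts of the respiratory chain or ATP synthase. Their RNAs come from mitochondrial DNA, but every protein subunit is encoded in the nucleus, made in the cytosol and imported. Some subunits have bacterial counterparts and the others were added in the evolution of mitochondria, so both subunits are richer in protein than those of bacteria.

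Recovered reads came to 13188257 to 18630958 per library, and the 78 genes took 0.318% to 0.406% of them. Reads of mitochondrial DNA took 6.73% to 10.5%, most in library IR 3. Of 9 mesothelial markers 4 had a mean of at least 1 FPKM (MSLN, CALB2, KRT8 and KRT18), while WT1, UPK3B, KRT5 and LRRN4 were under it and PDPN was listed at 0. Leukocyte, endothelial and other epithelial markers were all under 0.1 FPKM, and 2 of 3 fibroblast markers reached 1 FPKM.

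The mitoribosome genes were expressed at middle to high levels. The median gene stood at 15.0 FPKM in the large subunit and 12.8 FPKM in the small subunit, against 7.14 FPKM for the 10751 protein-coding genes tested. At least 10 FPKM was reached by 66.7% of the 78 genes and by 37.8% of those protein-coding genes. Genes with a bacterial counterpart had a median of 16.4 FPKM in the large subunit (n = 30) and 12.9 FPKM in the small (n = 16). The mitochondria-specific genes had 11.6 FPKM in the large (n = 19) and 17.2 FPKM in the small subunit (n = 10). MRPS18B, at 36.0 FPKM, was counted here as mitochondria-specific, although it is a copy of a bacterial gene. The order of the classes in the small subunit rests on that choice.

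**Figure D1:**
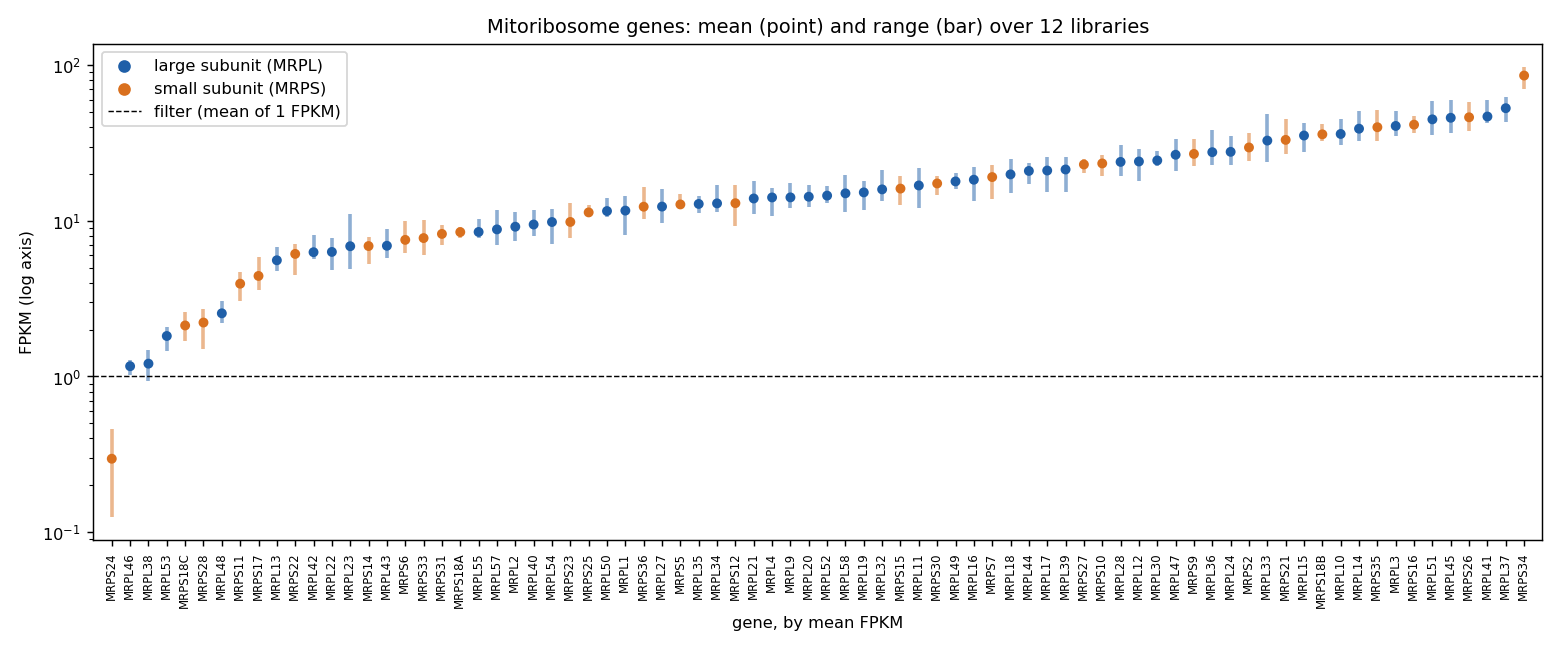
Mean FPKM (point, log axis) and range over the 12 libraries (bar) of each of the 78 genes, in order of mean, with the large subunit in blue, the small in orange and the filter of 1 FPKM as a dashed line. MRPS34 stood highest at 86.0 FPKM, and MRPS24, at 0.296 FPKM, was the 1 gene under the filter.

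MRPS34, a mitochondria-specific protein of the small subunit, had the highest level, 86.0 FPKM. It was followed by MRPL37 with 53.0 FPKM and MRPL41 with 46.9 FPKM, both mitochondria-specific proteins of the large subunit. Just inside the filter lay MRPL46 at 1.16 FPKM, MRPL38 at 1.21 FPKM and MRPL53 at 1.82 FPKM. Just outside it lay MRPS24 at 0.296 FPKM, from 5 to 23 reads per library. Many of the low genes share their place in the genome with others: 8 of the 9 genes under 5 FPKM overlapped another protein-coding gene, against 30 of the 69 at 5 FPKM or more. MRPS24 lies on chromosome 7 (43866558 to 43869893, hg38) inside the read-through gene URGCP-MRPS24, itself listed at 0. How the authors' counting treated overlaps and strand is not given in the sources used here, so these low levels are uncertain.

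The promoter sequences show what many of these genes share outside the measurements. RefSeq promoters (GRCh38.p14, 250 bases before to 50 after each start) were found for 69 of the 78 genes, 85 promoters in all. Letters were searched on both strands. The ETS letters CCGGAAG, the core recognised by factors such as GABPA, were in 38.8% of these promoters and in 18.1% of the 12589 promoters of protein-coding genes tested. The YY1 letters AAGATGGCG were in 15.3% against 3.75%. The NRF1 letters GCGCANGCG, part of a site in many nuclear genes of mitochondrial proteins, were in 17.6% against 13.5%, CCAAT was in 32.9% against 34.5%, CACGTG in 10.6% against 9.56% and TATAAA in 3.53% against 5.66%. At least 1 of the ETS, YY1 and NRF1 matches was present in 60.0% of the mitoribosome promoters and in 31.0% of the promoters of protein-coding genes tested. A match describes letters and not binding, and no binding was measured.

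4 of these promoters are shown, as examples of the NRF1 letters (MRPL36, MRPL45) and of repeated ETS letters (MRPS34, MRPL58), for genes whose values follow. Each is the stretch before the start that overlaps no exon of the annotation, read 5′ to 3′ on the gene's strand, with the motif letters on either strand in capitals. They lie at chr5:1799896-1800087 (minus strand), chr17:38296918-38297022 (plus), chr16:1773156-1773206 (minus) and chr17:75012420-75012669 (plus), in GRCh38.p14.
MRPL36: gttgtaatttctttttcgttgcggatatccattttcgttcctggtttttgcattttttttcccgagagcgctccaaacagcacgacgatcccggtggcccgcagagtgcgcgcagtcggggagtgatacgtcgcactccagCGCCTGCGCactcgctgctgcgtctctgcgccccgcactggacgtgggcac
MRPL45: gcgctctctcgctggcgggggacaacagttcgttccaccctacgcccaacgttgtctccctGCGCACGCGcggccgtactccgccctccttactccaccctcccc
MRPS34: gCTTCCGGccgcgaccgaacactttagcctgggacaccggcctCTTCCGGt
MRPL58: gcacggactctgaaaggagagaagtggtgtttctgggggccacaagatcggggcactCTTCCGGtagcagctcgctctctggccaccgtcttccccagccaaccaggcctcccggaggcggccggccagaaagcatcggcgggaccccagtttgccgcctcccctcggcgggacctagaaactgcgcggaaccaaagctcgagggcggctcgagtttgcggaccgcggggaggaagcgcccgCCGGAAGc
The ETS letters in MRPL58 read CCGGAAG near the start and CTTCCGG, their reverse complement, farther away. Both copies in the MRPS34 stretch shown are in the reverse orientation, and a further match nearer the start lies outside it. The short MRPS34 stretch separates it from EME2, a gene on the opposite strand, and MRPL36 likewise starts back to back with NDUFS6, a gene of respiratory complex I. Such a partner within 1000 bases was found for 14 of 77 mitoribosome genes tested (18.2%) and for 1084 of 10751 protein-coding genes tested (10.1%). In 1 case both genes are subunits: MRPL46 of the large and MRPS11 of the small subunit start 34 bases apart on chromosome 15. The promoter of MRPL1, the gene with the smallest p in Combo against Con, held none of the 6 motifs searched.

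Across libraries the large and the small subunit varied by nearly equal amounts. The mean of log2(FPKM + 1) over large subunit genes ranged over 0.50 between libraries and that over small subunit genes over 0.46, while their difference ranged over 0.11. The large-minus-small difference had the values 0.086 ± 0.020 for IR, 0.058 ± 0.023 for Con, 0.039 ± 0.057 for Rx and 0.037 ± 0.016 for Combo (SD, n = 3). In reads, the large subunit had 1.47 ± 0.0408 reads per small subunit read for IR, 1.43 ± 0.0138 for Con, 1.42 ± 0.0495 for Rx and 1.40 ± 0.0144 for Combo (SD, n = 3). The log2 difference was 0.064 to 0.099 over the IR libraries and 0.019 to 0.049 over the Combo libraries, so these groups did not overlap, and every other pair of groups did. In reads, Combo (1.38 to 1.41) lay below IR (1.43 to 1.51) and, by a narrow gap, below Con (1.41 to 1.44), and the other pairs overlapped. For each pair without overlap the two-sided exact permutation test gave p = 0.1, the smallest that 3 against 3 allows (0.4 after Benjamini-Hochberg adjustment over 12 comparisons). With genes under 5 FPKM left out the log2 difference turned negative in Con, Rx and Combo and stayed positive in IR (Con -0.024, IR 0.0045, Rx -0.050, Combo -0.059).

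**Figure D2:**
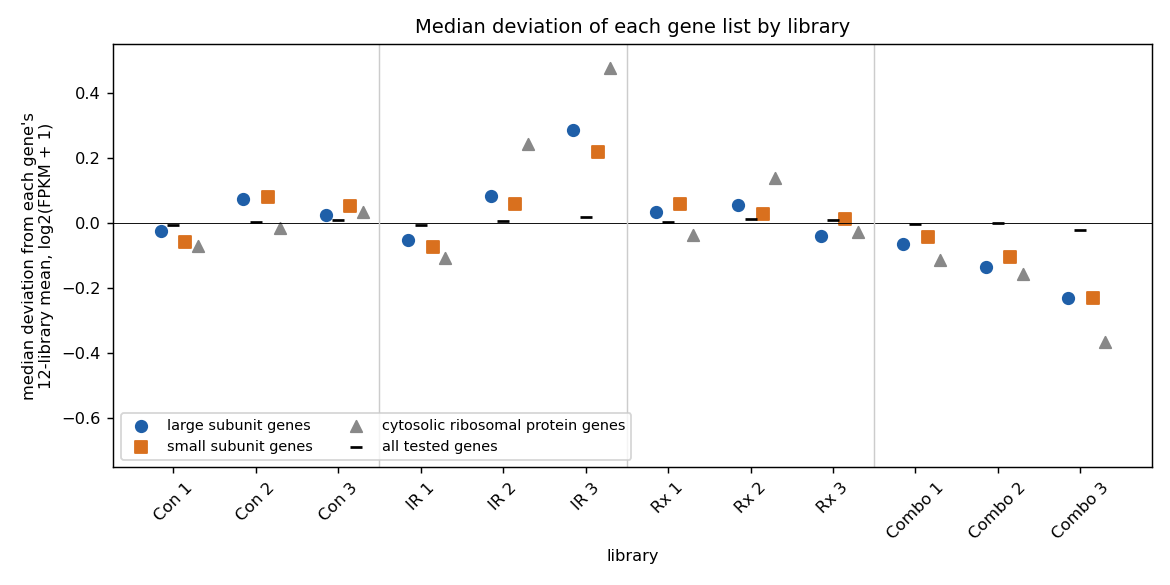
Median over genes of each library's deviation from the gene's 12-library mean, in log2(FPKM + 1), for large subunit genes (circles), small subunit genes (squares), cytosolic ribosomal protein genes (triangles) and all tested genes (dashes). The large and small subunit medians were 0.29 and 0.22 in IR 3 and -0.23 and -0.23 in Combo 3, with all tested genes at 0.020 and -0.022.

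A pair of libraries set the extremes. IR 3 was the highest library for 59 of 77 genes (76.6%, against 23.3% of all tested genes), and Combo 3 was the lowest for 47 of 77 (61.0%, against 19.7%). Of the 77 genes, 74 stood above their own 12-library mean in IR 3, 62 in IR 2 and 24 in IR 1. In Combo 1, Combo 2 and Combo 3 these counts were 15, 7 and 3. The share of all reads that fell in the 78 genes was highest for IR at 0.373 ± 0.0307% and for Con at 0.370 ± 0.0146%, then 0.358 ± 0.00997% for Rx and 0.329 ± 0.0118% for Combo (SD, n = 3), and each Combo library lay below the other 9. In bulk RNA, fewer cells of a kind and less RNA per cell cannot be told apart. IR 3 also had the highest mitochondrial share of reads. The summed level of the 9 mesothelial markers was 1180 FPKM in Con, 1210 FPKM in IR, 1113 FPKM in Rx and 846 FPKM in Combo. Most of this sum was KRT8 (means of 530 FPKM in Con and 372 FPKM in Combo) and KRT18 (585 and 424 FPKM). MSLN had 38.2 ± 7.85 FPKM in Con and 34.0 ± 13.5 FPKM in Combo (SD, n = 3). WT1, under 1 FPKM on average, had the higher mean in Combo (0.787 and 1.10 FPKM). The part of the mitochondrial share and of these markers in the mitoribosome levels was not tested.

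In Combo against Con, 73 of 77 mitoribosome genes had the lower mean in Combo, with median log2 changes of -0.18 for the large and -0.15 for the small subunit against -0.0057 for all 13038 tested genes. No single gene passed limma's test at a Benjamini-Hochberg adjusted p of 0.05 (0 of 77, with 0% of all tested genes called). At an unadjusted p under 0.05, 17 were lower, 14 of the large and 3 of the small subunit, against 7.69% of all tested genes, and none was higher, against 5.49%. On reads recovered from the FPKM, limma's voom test called 0 of the 77 at an adjusted p of 0.05, with 19 lower at an unadjusted p under 0.05. The share of all tested genes at that unadjusted mark is not given for voom, here or below, so its counts have no background. With libraries weighted by quality limma called 2, MRPL1 and MRPL11, against 1.37% of all tested genes. All Combo libraries lay below all Con libraries for 33 of the 77 genes, against 12.8% of all tested genes, and above them for 0, against 10.0%. The 3 Combo libraries lay below the other 9 for 14 of 77 genes, 11 of the large and 3 of the small subunit (3.31% of all tested genes), and above the other 9 for 0 (1.6%). Combo 3 carried part of this: without it the medians were -0.10 and -0.095 and 8 genes had an unadjusted p under 0.05. Without Con 2 that number was 11, and without IR 1, which enters the shared estimate of spread, it was 26. For fits without a library, here or below, no share of all tested genes at an unadjusted p under 0.05 is given. Whether all tested genes moved alike cannot be read from these counts.

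MRPL1 (ENSG00000169288, chromosome 4, 77862520 to 77952790, hg38) encodes the protein of the L1 stalk, the arm beside the exit site for spent tRNA. Its level was 12.1, 13.5 and 14.5 FPKM in the Con libraries, 10.8, 13.7 and 14.0 FPKM in IR, 11.4, 11.8 and 11.4 FPKM in Rx and 9.42, 9.02 and 8.16 FPKM in Combo. All 3 Combo libraries were below the other 9, and the Rx libraries were also below all Con libraries. The log2 change in Combo against Con was -0.54 with a standard error of 0.10 (limma, adjusted p = 0.122), the lowest adjusted p among the 77 genes. Each library rests on 303 to 439 reads.

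MRPL11, at the base of the L7/L12 stalk where translation factors bind, had 17.0, 18.2 and 18.6 FPKM in Con, 16.4, 17.6 and 22.0 FPKM in IR, 17.2, 18.2 and 16.8 FPKM in Rx and 14.7, 13.8 and 12.1 FPKM in Combo. Combo again did not overlap any other group, and the log2 change against Con was -0.38 with a standard error of 0.10 (limma, adjusted p = 0.172). MRPL4, a core protein of the large subunit, had 14.4, 16.3 and 15.5 FPKM in Con, 13.2, 15.1 and 15.7 FPKM in IR, 15.3, 15.7 and 13.0 FPKM in Rx and 11.7, 13.0 and 10.8 FPKM in Combo. Its highest Combo library lay just below the lowest Rx library, and the log2 change against Con was -0.35 with a standard error of 0.09 (limma, adjusted p = 0.164). The 4 genes of the L1 and L7/L12 stalks (MRPL1, MRPL10, MRPL11 and MRPL12) were all lower in Combo, as were 73 of the 77 genes. Their median log2 change was -0.28, against -0.18 for the large subunit. MRPL1 and MRPL11 were named for their small p in this comparison, so this median is no separate result. MRPL12, the factor-binding stalk protein itself, had means of 24.2 ± 3.00 FPKM in Con and 21.2 ± 2.67 FPKM in Combo (SD, n = 3), and these groups overlapped.

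**Figure D3:**
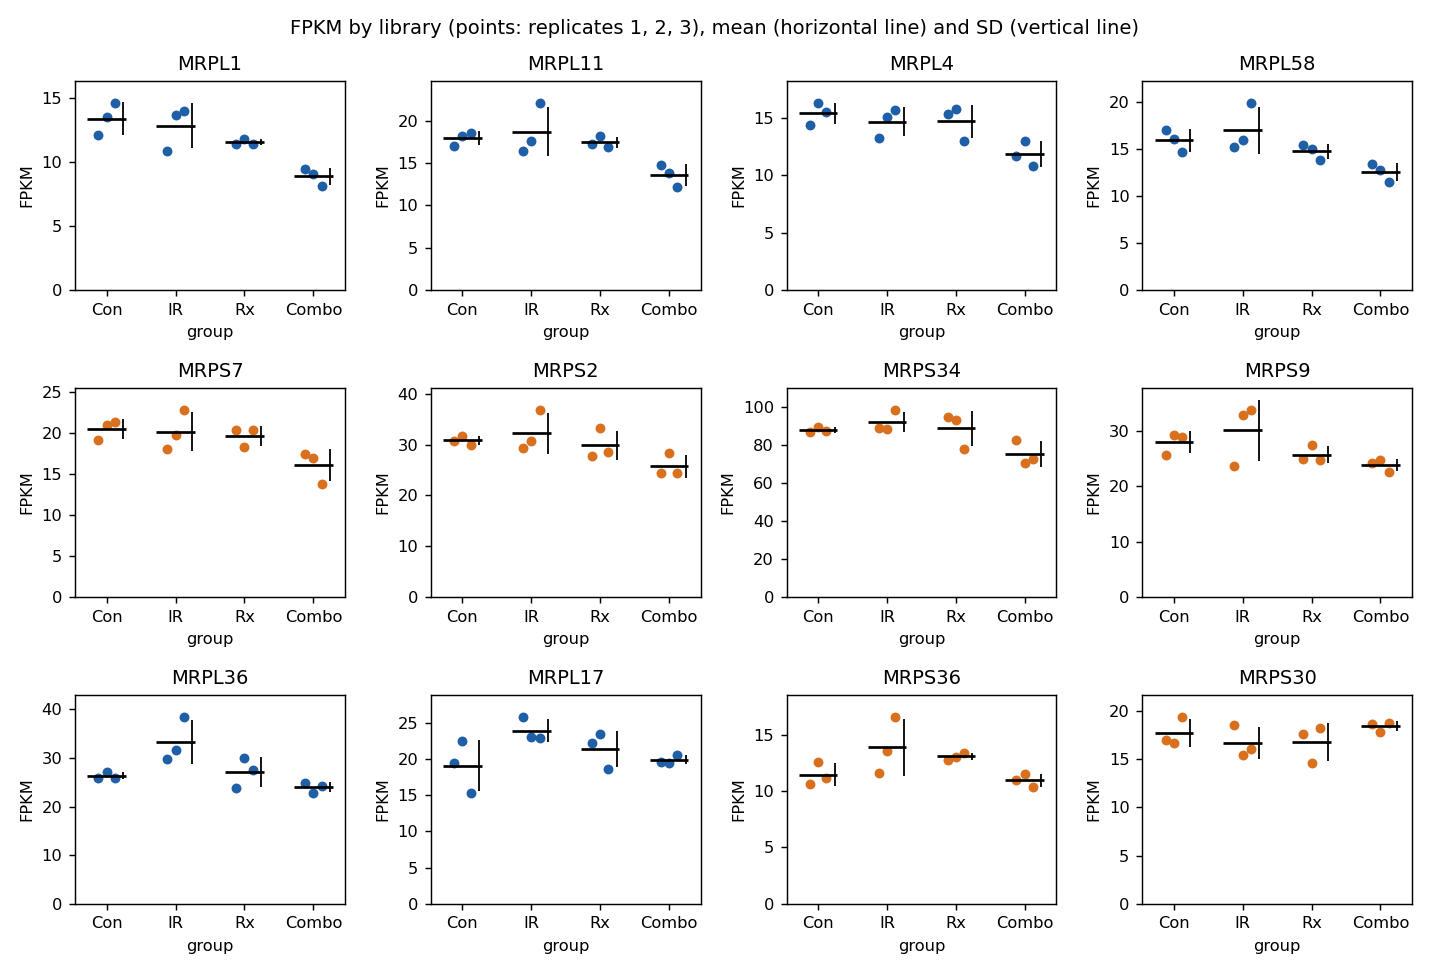
FPKM of 12 mitoribosome genes in each library (points, replicates 1, 2 and 3 from left to right) with the group mean (horizontal line) and SD (vertical line), large subunit in blue and small in orange, each axis from 0. In MRPL1 the Combo libraries lie between 8.16 and 9.42 FPKM, below every other library, while in MRPS30 the groups overlap.

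In the small subunit the lowest p in Combo against Con belonged to MRPS7, MRPS2 and MRPS34. MRPS7, a protein of the subunit's head with a bacterial counterpart, had 19.1, 21.0 and 21.3 FPKM in Con and 17.5, 17.0 and 13.9 FPKM in Combo, with IR at 18.0, 19.8 and 22.8 FPKM and Rx at 20.4, 18.3 and 20.4 FPKM. All Combo values were below the other 9, Combo 3 by the widest gap (log2 change against Con -0.33, standard error 0.10; limma, adjusted p = 0.221). MRPS2, another bacterial-type protein, had 30.7, 31.8 and 30.0 FPKM in Con and 24.4, 28.3 and 24.4 FPKM in Combo, and 27.7, 33.2 and 28.6 FPKM in Rx, so Combo lay apart from Con but not from Rx (log2 change against Con -0.25; limma, adjusted p = 0.322). MRPS34, the most abundant member, had 86.8, 89.7 and 87.3 FPKM in Con and 82.8, 70.3 and 72.6 FPKM in Combo. Its Con libraries were tight and all above Combo (log2 change -0.23; limma, adjusted p = 0.328), while Rx spread from 78.1 to 94.8 FPKM.

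MRPS12, the counterpart of a bacterial protein at the decoding centre, had 13.4 ± 1.04 FPKM in Con and 11.1 ± 1.57 FPKM in Combo (SD, n = 3), with Combo 3 lowest at 9.34 FPKM. MRPL45, which faces the inner membrane near the peptide exit, had 47.9 ± 1.29 FPKM in Con and 39.6 ± 2.72 FPKM in Combo (SD, n = 3). Its pseudogene MRPL45P2 stood at 3.87 FPKM, so reads may be shared between the copies. Both MRPS12 and MRPL45 were among the 14 genes with Combo below the other 9 libraries, as was MRPL37, with 55.3 ± 1.15 FPKM in Con and 45.6 ± 2.37 FPKM in Combo (SD, n = 3). Of the remaining highest and lowest genes, MRPL41 had 44.8 ± 1.55 and 43.7 ± 1.38 FPKM in Con and Combo (SD, n = 3), and log2 changes in MRPL38, MRPL46 and MRPL53 were -0.04, -0.00059 and 0.08. The 4 genes with the higher mean in Combo than in Con were MRPL17, MRPL52, MRPL53 and MRPS30, named after their values were seen.

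**Figure D4:**
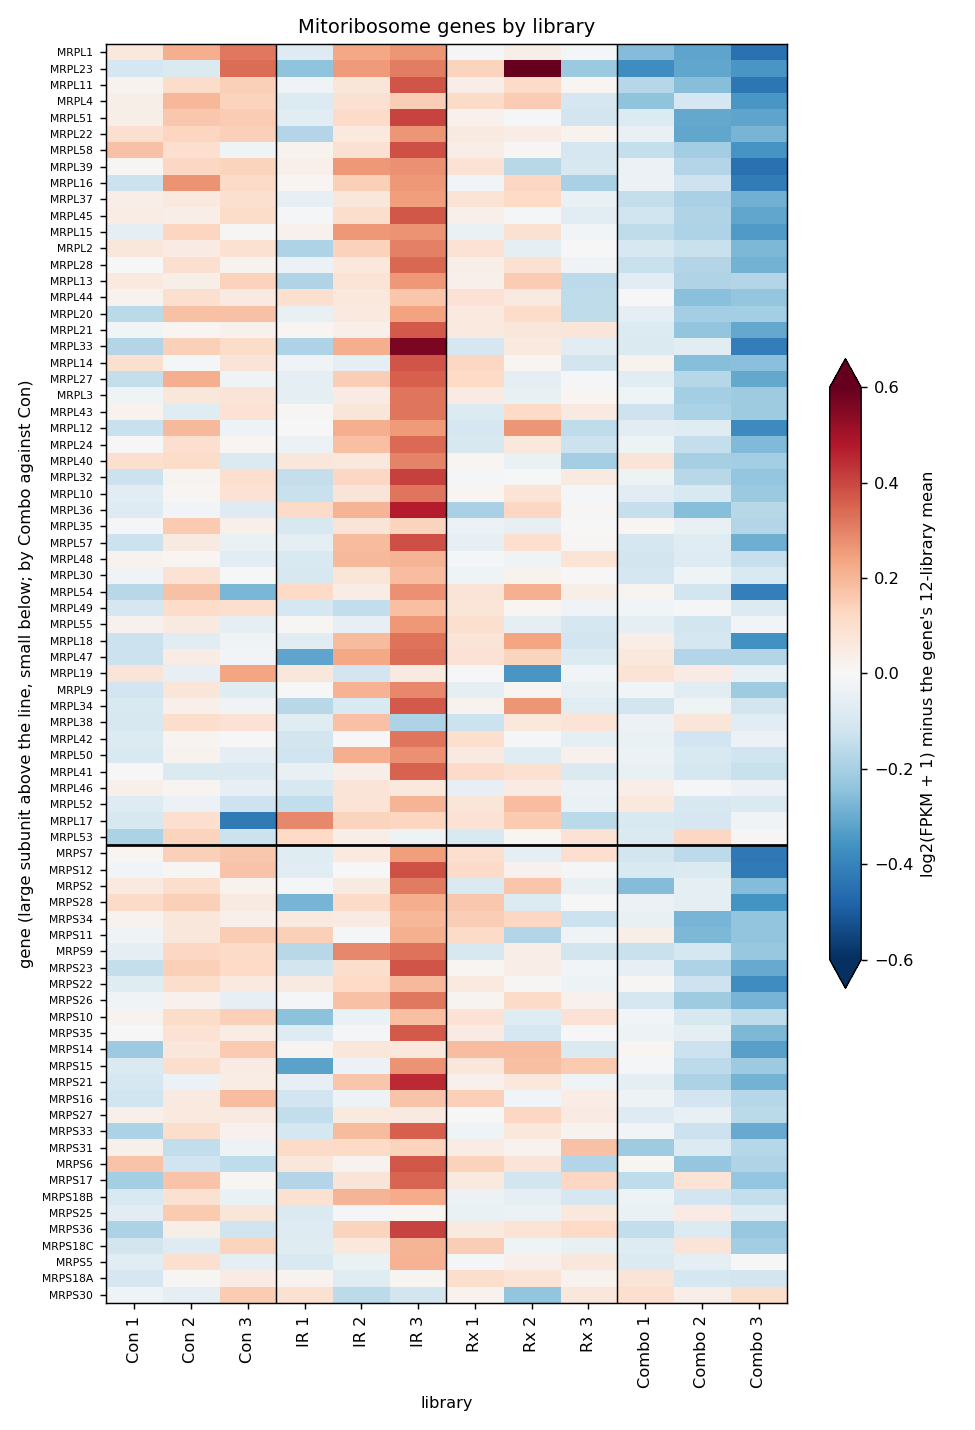
log2(FPKM + 1) of the 77 tested genes in each library, as the difference from the gene's 12-library mean, with the large subunit above the black line and each subunit ordered by Combo against Con. The column of IR 3 is red for 74 of 77 genes and that of Combo 3 blue for 74, in both subunits.

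Combo was also below IR and Rx, the groups that received 1 of the treatments. These comparisons share the Combo libraries with the one above, so their values stand side by side with it. Against IR, 73 of 77 genes were lower, with median log2 changes of -0.27 for the large and -0.27 for the small subunit and -0.012 for all tested genes. By limma 0 of 77 passed an adjusted p of 0.05 (0% of all tested genes; lowest among the 77, 0.164), while 45 were lower at an unadjusted p under 0.05 (11.6% of all tested genes) and none was higher (5.91%). The voom test called 0, with 49 lower at the unadjusted mark, for which no share of all tested genes is given by voom. Without IR 1 limma called 29 of the 77, all lower, against 7.33% of all tested genes. With libraries weighted by quality it called 50, all lower except MRPS30, against 34.5% of all tested genes. Groups did not overlap for 36 genes that were lower, against 11.6% of all tested genes, and for 0 that were higher, against 8.53%. The count of 45 was 24 without IR 3, 23 without Combo 3 and 13 without both, and the medians without both were -0.13 and -0.11. Against Rx, 73 of 77 genes were lower, with medians of -0.16 and -0.17 (all tested genes -0.014). Here limma passed 0 of 77 (0% of all tested genes), voom also 0, and by both 16 were lower at an unadjusted p under 0.05 (limma, 6.3% of all tested genes) and none higher (2.81%). The limma count was 5 without Combo 3 and 8 without Rx 2. Groups did not overlap for 29 genes that were lower, against 12.7% of all tested genes, and for 0 that were higher, against 8.26%.

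Radiation alone gave higher means without a gene past the test. In IR against Con, 61 of 77 genes had the higher mean, with medians of 0.087 for the large and 0.054 for the small subunit and 0.0081 for all tested genes. By limma 0 of 77 passed (0% of all tested genes), and 6 were higher at an unadjusted p under 0.05 against 3.69% of all tested genes, with 0 lower against 3.17%. The voom test also called 0, with 3 higher at the unadjusted mark. With libraries weighted by quality limma called 5, all higher in IR, against 7.77% of all tested genes. Groups did not overlap for 3 genes that were higher in IR (5.56% of all tested genes) and for 0 that were lower (4.98%). The direction rested on IR 3: without it the medians were -0.0096 and -0.025, and 3 genes were higher at that p. Without IR 1, the lowest IR library in both subunits, they were 0.17 and 0.12 with 20 genes. The small subunit's median was 0.012 without Con 1, 0.096 without Con 3 and 0.089 without IR 2, and 2 genes remained at that p without Con 3 or IR 2. Rescaling to TPM turned both medians to -0.020 and -0.048, with all tested genes at -0.083.

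Those 6 genes were MRPL36, MRPL17, MRPL9, MRPS18B, MRPS31 and MRPS36. MRPL36, one of the smallest large subunit proteins, had 25.9, 27.1 and 25.9 FPKM in Con and 29.7, 31.7 and 38.4 FPKM in IR, with Rx at 23.8, 30.0 and 27.6 FPKM and Combo at 24.8, 22.8 and 24.3 FPKM. IR lay above Con and Combo below it, with IR 3 far above the rest (log2 change in IR against Con 0.32, standard error 0.10; limma, adjusted p = 0.68). MRPL17, a large subunit protein with a bacterial counterpart, had 19.5, 22.5 and 15.3 FPKM in Con and 25.8, 23.0 and 23.0 FPKM in IR, where the low Con 3 library widened the gap (log2 change 0.33, standard error 0.12; limma, adjusted p = 0.704). MRPS31, a mitochondria-specific small subunit protein, had 8.41, 7.32 and 8.02 FPKM in Con, 8.98, 9.02 and 9.10 FPKM in IR, 8.50, 8.35 and 9.42 FPKM in Rx and 6.96, 7.71 and 7.19 FPKM in Combo. Its IR values were nearly equal and above all of Con and Combo (log2 change in IR against Con 0.17; limma, adjusted p = 0.708). MRPL9, again of bacterial type, averaged 13.7 ± 1.01 FPKM in Con and 16.0 ± 1.70 FPKM in IR (SD, n = 3), and its groups overlapped.

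QTP alone left the mitoribosome genes near Con. In Rx against Con 34 genes had a higher and 43 a lower mean, with medians of -0.017 for the large and 0.0088 for the small subunit and 0.0039 for all tested genes. By limma and by voom 0 of 77 passed (0% of all tested genes by limma), and by both none of the 77 had an unadjusted p under 0.05 (by limma 2.36% of all tested genes were higher and 0.897% lower at that mark). Groups did not overlap for 4 genes that were lower (3.18% of all tested genes) and 2 that were higher (4.6%). The sign of the large subunit's median turned without Con 2 (0.0091) or Rx 3 (0.012), and that of the small without Con 1 (-0.047) or Rx 1 (-0.021). Without Con 1 the large subunit's median was -0.046, without Rx 2 it was -0.037 and without Rx 1 -0.011; the small subunit's was 0.017 without Con 2, 0.014 without Con 3 and 0.016 without Rx 3. The smallest p belonged to MRPL19, a protein at the interface of the subunits, with 16.3 ± 1.72 FPKM in Con and 14.0 ± 1.97 FPKM in Rx (SD, n = 3), and Rx 2 lowest at 11.7 FPKM. MRPL52, a mitochondria-specific protein, had 13.7 ± 0.458 FPKM in Con and 15.3 ± 1.26 FPKM in Rx (SD, n = 3).

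**Figure D5:**
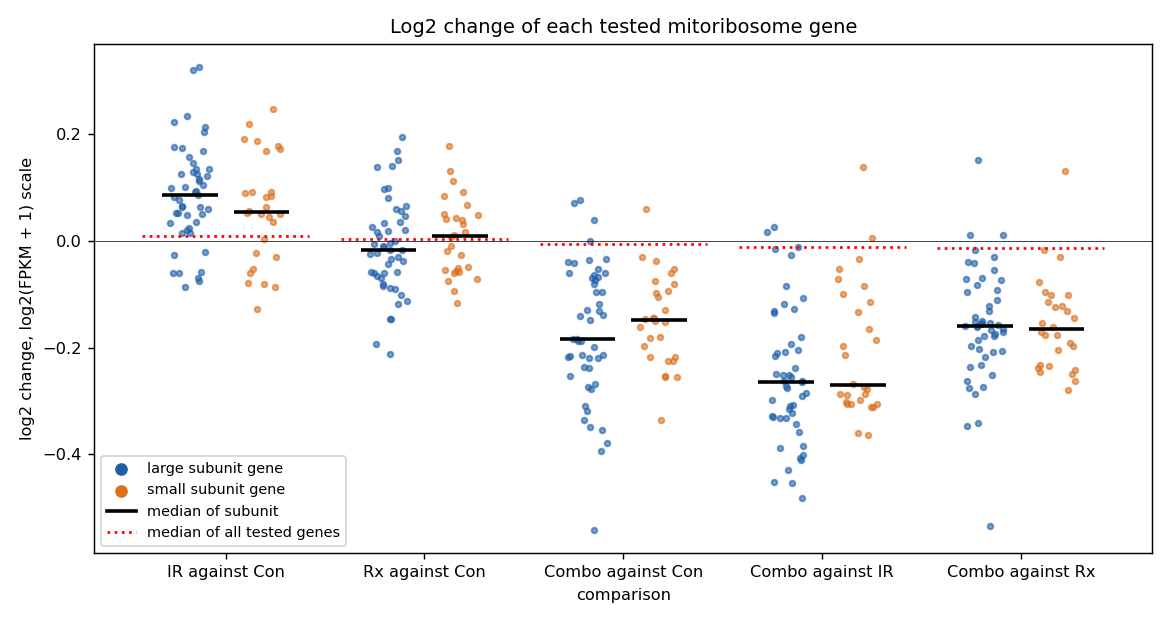
log2 change of each of the 77 genes in 5 comparisons (points, with random horizontal spread), with the median of each subunit (black) and of all tested genes (dotted red). Subunit medians lie at -0.18 and -0.15 in Combo against Con and at -0.017 and 0.0088 in Rx against Con, next to all-gene medians of -0.0057 and 0.0039.

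With QTP averaged over both radiation arms, 72 of 77 genes were lower, with medians of -0.14 and -0.12 (all tested genes -0.0048). By limma 0 of 77 passed (0.092% of all tested genes), while 25 were lower at an unadjusted p under 0.05 (6.17% of all tested genes) and none was higher (5.21%). The voom test called 0, with 26 lower at the unadjusted mark. Without IR 1 limma called MRPL1 alone, against 0.069% of all tested genes, and with libraries weighted by quality 13 genes, all lower, against 5.96%. The medians were -0.088 and -0.070 without IR 3 and -0.072 and -0.031 without IR 3 and Combo 3, and the small subunit's was -0.080 without Combo 3. The count of 25 ran from 11 without Combo 3, through 13 without Con 2, IR 3 or Rx 3, to 46 without IR 1, and was 9 without both IR 3 and Combo 3. MRPL1 led again (log2 change -0.34, standard error 0.07; limma, adjusted p = 0.121), followed by MRPL58, a peptidyl-tRNA hydrolase built into the large subunit. MRPL58 had 17.0, 16.1 and 14.6 FPKM in Con, 15.2, 15.9 and 19.8 FPKM in IR, 15.4, 15.0 and 13.8 FPKM in Rx and 13.4, 12.8 and 11.5 FPKM in Combo. Combo lay below every other library and Rx overlapped with Con (log2 change for QTP averaged -0.25, standard error 0.07; limma, adjusted p = 0.252). MRPL39, a mitochondria-specific protein, went from 22.7 ± 1.15 FPKM in Con and 24.4 ± 2.34 FPKM in IR to 20.4 ± 1.98 FPKM in Rx and 18.2 ± 2.71 FPKM in Combo (SD, n = 3). MRPS9, of bacterial type, had 28.0 ± 1.96 FPKM in Con, 30.2 ± 5.55 FPKM in IR, 25.7 ± 1.56 FPKM in Rx and 23.9 ± 1.09 FPKM in Combo (SD, n = 3), with overlapping ranges in IR and Combo.

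With radiation averaged over both QTP arms the medians were -0.032 and -0.041 (all tested genes -0.0037), 56 of 77 genes were lower, and at an unadjusted p under 0.05 limma had 4 lower (5.17% of all tested genes) and 0 higher (3.34%), and voom 3 lower. None of the 77 passed by limma or by voom (0% of all tested genes by limma). These medians moved with single libraries. The large subunit's ran from -0.077 without IR 3 to 0.0080 without IR 1, by way of -0.054 without Combo 1, -0.050 without Con 1, -0.021 without Rx 2, -0.011 without Con 2 and -0.0047 without Combo 3. The small subunit's ran from -0.071 without IR 3 and -0.067 without Con 1 to -0.026 without Con 2 and -0.025 without Combo 3.

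The interaction asks whether QTP changed a gene differently with radiation than without. It was negative for 71 of 77 genes, with medians of -0.24 and -0.22 against -0.025 for all tested genes. By limma and by voom 0 of 77 passed (0% of all tested genes by limma). At an unadjusted p under 0.05, 19 were negative by limma (5.31% of all tested genes) and 18 by voom, and none was positive (2.32% by limma). Without IR 3 the medians were -0.16 and -0.14 with 12 genes at that p, and without IR 3 and Combo 3 they were -0.11 and -0.071 with 7 genes. That count was 9 without Combo 3 or Rx 2, 11 without Rx 1 and 41 without IR 1. Rescaling to TPM moved the median of all tested genes by 0.16 to 0.14 and the subunit medians to -0.067 and -0.048, which relative to all tested genes are -0.20 and -0.18, near the -0.21 and -0.19 of the deposited scale.

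Symbols do not always match the place of the protein. MRPS30 and MRPS18A, named for the small subunit, sit in the large subunit in structures of the human mitoribosome, and MRPS36 is now known as KGD4, a part of the 2-oxoglutarate dehydrogenase complex. MRPS30 had 17.0, 16.7 and 19.4 FPKM in Con, 18.6, 15.5 and 16.0 FPKM in IR, 17.6, 14.6 and 18.3 FPKM in Rx and 18.7, 17.9 and 18.8 FPKM in Combo. Its Combo libraries were among the highest, and every pair of groups overlapped (log2 change in Combo against Con 0.06, standard error 0.10). MRPS18A, MRPS18B and MRPS18C are 3 copies of 1 bacterial small subunit gene. MRPS18B was the most abundant, at 36.0 FPKM, with 33.6, 38.3 and 34.9 FPKM in Con, 38.3, 41.5 and 42.0 FPKM in IR, 35.0, 34.5 and 33.4 FPKM in Rx and 35.1, 33.1 and 32.5 FPKM in Combo. IR stood above Rx and Combo and touched Con. MRPS18A averaged 8.48 FPKM and MRPS18C 2.13 FPKM, and in Combo against Con their log2 changes were -0.03 and -0.05, with -0.08 for MRPS18B. MRPS36 had 11.5 ± 1.01 FPKM in Con, 13.9 ± 2.51 FPKM in IR, 13.1 ± 0.301 FPKM in Rx and 10.9 ± 0.601 FPKM in Combo (SD, n = 3). With genes assigned by place and MRPS36 left out, the medians in Combo against Con were -0.15 for the large and -0.15 for the small subunit.

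Other genes of mitochondrial translation had medians of the same sign in Combo against Con, and none passed limma's test at an adjusted p of 0.05. All 5 mitoribosome subunits outside the naming rule were lower, with a median log2 change of -0.13. Among them AURKAIP1, a small subunit protein, had means of 41.2 FPKM in Con and 33.2 FPKM in Combo (log2 change -0.30; limma, adjusted p = 0.206). All 12 translation factors were lower, with a median of -0.16 and 6 at an unadjusted p under 0.05, a mark at which 7.69% of all tested genes were lower. TACO1, an activator of COX1 translation, changed from 14.0 to 11.1 FPKM in the means (log2 change -0.30; limma, adjusted p = 0.193), and TUFM, the elongation factor that delivers tRNA, from 143 to 119 FPKM (log2 change -0.26; limma, adjusted p = 0.289). Of 24 assembly factors 19 were lower, with a median of -0.11, among them RCC1L, a factor of ribosome assembly, with means of 25.1 FPKM in Con and 19.9 FPKM in Combo (log2 change -0.32; limma, adjusted p = 0.149). The 8 genes of mitochondrial transcription and RNA stability were all lower, with a median of -0.13.

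Genes encoded by mitochondrial DNA had the opposite sign in Combo against Con, but not in every comparison. The median log2 change in Combo against Con was 0.18 for the 13 protein genes, all higher, and 0.096 for the ribosomal RNA genes MT-RNR1 and MT-RNR2, both higher and none past the test (limma, lowest adjusted p 0.542 among the protein genes). The 13 protein genes were also all higher than Con in IR (median 0.15) and in Rx (0.29). Relative to IR, 7 were higher and 6 lower in Combo (0.027). Relative to Rx all 13 were lower in Combo (-0.16), and in the interaction all 13 were negative (-0.31), as for most mitoribosome genes. Of 9 tested nuclear regulators of mitochondrial genes, 6 were lower and 3 higher in Combo against Con, with a median of -0.026. YY1 had means of 12.3 FPKM in Con and 13.6 FPKM in Combo, GABPA 6.07 and 5.92 FPKM, and NRF1 3.45 and 3.37 FPKM. Cytosolic ribosomal protein genes (81 tested) had median log2 changes from Con of 0.22 for IR, 0.037 for Rx and -0.20 for Combo, and of -0.42 for Combo relative to IR. The mitoribosome genes stood at 0.077, -0.011, -0.15 and -0.27 in the same order; the difference between the lists was not tested.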

How the data were processed

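RNA sequencing of 12 libraries was analysed from 1 deposited table. Per the labels, Trizol and RNeasy columns gave the RNA, an NEBNext Ultra RNA kit the libraries, and a NovaSeq6000 the sequence. The authors deposited FPKM per gene, with hg38 as the build per the submitters' processing notes; not given in the sources used here are aligner, counter, strand use and scaling. Values times gene length were whole multiples of 1 step per library in 100% of cases (tolerance 0.01 reads), which gave back the reads. At 1 FPKM, 13.3 to 19.1 reads lie behind each kb of gene.

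Groups and replicate numbers came from sample titles. A chi-square of reads between replicates found no library deposited again (7.09 to 39.9 per degree of freedom). log2(FPKM + 1) of the 13038 genes averaging 1 FPKM or more was fitted with limma 3.58.1 in R 4.3.3 (group means, variance trend, 12 libraries, two-sided, Benjamini-Hochberg over all 13038); such changes understate those of low genes. limma's voom on the recovered reads, scaled by the median of ratios, was an alternative chosen after seeing the data. The limma test was tested on simulated data. Named genes were the 3 of each subunit with the smallest p in 4 comparisons, the 3 highest and 3 lowest, those beside the filter and 9 chosen for their roles. Members, lists and tests were chosen with earlier results of these data known. Same-named rows left out were 75 pseudogenes and 2 antisense genes, of which 2 exceeded 1 FPKM.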

Additional observations from a re-analysis of the deposited data

How the results depend on the processing

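Across alternatives 189 of 197 counts of genes called were the same. Each main count was 0, so the same count means only that 0 genes were called again. Counts at an unadjusted p under 0.05 moved more, such as from 25 to 9 or 46 with QTP averaged. Of the medians 398 of 410, and of the large-minus-small differences 30 of 40, moved by less than 1 SD. For medians this was the SD between replicates of the subunit's mean log2 level, 0.099 (large) and 0.091 (small). It exceeds the medians in IR and in Rx against Con and with radiation averaged, so there a median could vanish or turn and still count. The sign was kept by 396 of 410 medians; the 14 that turned were 6 of IR minus Con, 7 of Rx minus Con and 1 with radiation averaged. Besides those in the report, the small subunit's median in Rx against Con was -0.080 in TPM (all tested genes -0.073), -0.016 after quantile normalization and -0.0022 with quality weights. Library quality weights called 5 genes between IR and Con (all higher in IR), 2 between Combo and Con (both lower), 50 between Combo and IR (all lower except MRPS30) and 13 with QTP averaged (all lower), where equal weights called 0. The planned count models on recovered reads are not reported because the deposited unit is FPKM, although voom on the same reads is. Their trial fits were not kept. Without the block 1 of them called none of the genes and the other a few in the Combo and QTP comparisons. With the block the first called MRPL1 and MRPL4 in Combo against Con. Replicate numbers were not taken to pair libraries: over all groups 11 of 18 same-numbered pairs had deviations correlated over 0.1 (lowest -0.207), although 10 of 12 libraries correlated best with their own number. With the replicate block limma called 1 gene in Combo against Con (MRPL1), and voom with the block, chosen after seeing the data, also called 1 (MRPL1). All 3 pairs were over 0.1 between Con and IR and between Con and Rx, but not between Con and Combo. The block changed no other count of calls. Leaving out 1 library gave 0 to 29 calls in Combo against IR and 0 to 1 with QTP averaged, both highest without IR 1. The small subunit's median in Combo against IR then ran from -0.31 to -0.18, and the interaction from -0.34 to -0.16 (large) and -0.31 to -0.14 (small). Without both IR 3 and Combo 3, also chosen after seeing the data, the medians were -0.13 and -0.11 in Combo against IR and -0.11 and -0.071 for the interaction. TPM gave -0.020 and -0.048 in IR against Con, -0.17 (small) in Combo against IR and -0.067 and -0.048 for the interaction. The large-minus-small difference was 0.18, 0.21, 0.16 and 0.15 in Con, IR, Rx and Combo with no filter, which takes in MRPS24, -0.024, 0.0045, -0.050 and -0.059 at 5 FPKM or more, and 0.020 and 0.043 in Con and IR with subunits by place. Beyond these constructions the cause was not tested. Depth limits MRPS24, with 5 to 23 reads per library.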
